A study of Homo sapiens with 32 samples.

Results

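The comparison described here is the line difference in the response to MOCOS knockdown, meaning the knockdown effect in LNCaP cells minus the knockdown effect in C4-2B cells for each gene. LNCaP is an established human prostate cancer line, and C4-2B is a castration-resistant line derived from it. All 32 libraries of the series enter the comparison, with 4 libraries in each of 8 groups. In each line the groups were a control siRNA (siCTRL) or siRNA against MOCOS (siMOCOS), without thapsigargin (TG) or with it. TG blocks the SERCA calcium pump and causes stress in the endoplasmic reticulum; no dose or time for it is stated in the labels. The knockdown effect was siMOCOS minus siCTRL on the log2 scale, averaged over the states without and with TG, so a difference above 0 means a smaller fall or a greater rise in LNCaP. Both lines were grown in RPMI medium with fetal bovine serum, and polyadenylated RNA was sequenced with a stranded kit. The labels name 2 siRNAs against MOCOS, with 2 libraries of each in every knockdown group, but the columns do not say which siRNA a knockdown library received. Nothing in the labels says that the libraries of a group came from separate cultures, so p-values measure the spread between these libraries, which may be technical. In the knockdown groups this spread also holds any difference between the 2 siRNAs.

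MOCOS encodes molybdenum cofactor sulfurase, the enzyme that adds the terminal sulfur to the molybdenum cofactor. Xanthine dehydrogenase (XDH), which makes uric acid from purines, and aldehyde oxidase (AOX1) need the sulfurated cofactor to work. LNCaP cells depend on androgen for growth, while their castration-resistant derivatives need less of it.

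Library totals ran from 7507226 to 27088570 counts, and 14628 of 29744 genes passed the filter on low counts. All 9 luminal prostate markers, such as KLK3 and KRT8, had a median of at least 1 CPM, the count of a gene per 1000000 counts of the library (unscaled for these markers and TMM-scaled for the genes below), in both lines, and their summed level ran from 1540 to 4020 CPM in C4-2B and from 2360 to 5940 CPM in LNCaP. The 3 basal markers summed to at most 3.87 CPM in any library, and the 5 immune markers to at most 8.9 CPM. The 5 neuroendocrine markers summed to at most 23.8 CPM, and the 5 stromal and endothelial markers to at most 28.7 CPM. In each of these 2 sets, 2 of 5 markers had a median of at least 1 CPM in both lines. In these bulk samples, fewer cells of a type and less RNA per cell cannot be told apart.

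The promoters of the 3 replication genes with the smallest adjusted p in the G1/S list are shown because that list had more called members than any other list tested. E2F factors drive G1/S genes from short sites near the start. The windows are the 250 bases before the first start that RefSeq lists for each gene (build GRCh38.p14), written 5′ to 3′ on the gene's strand, and the capitals mark matches to TTTCCCGC, TTTGGCGC or TTTCGCGC on either strand. CDT1 is at chr16:88803539-88803788 on the plus strand, UHRF1 at chr19:4909251-4909500 on the plus strand and MCM7 at chr7:100101398-100101647 on the minus strand.
CDT1: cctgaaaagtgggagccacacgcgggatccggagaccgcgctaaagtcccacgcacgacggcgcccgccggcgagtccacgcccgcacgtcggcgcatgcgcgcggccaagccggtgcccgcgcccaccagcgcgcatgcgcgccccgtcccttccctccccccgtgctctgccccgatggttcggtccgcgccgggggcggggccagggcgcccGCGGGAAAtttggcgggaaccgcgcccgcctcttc
UHRF1: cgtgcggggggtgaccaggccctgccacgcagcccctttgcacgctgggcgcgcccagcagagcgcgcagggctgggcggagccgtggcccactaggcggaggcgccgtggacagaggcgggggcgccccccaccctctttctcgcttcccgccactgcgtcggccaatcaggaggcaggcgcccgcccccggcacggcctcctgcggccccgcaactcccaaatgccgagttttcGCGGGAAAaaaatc
MCM7: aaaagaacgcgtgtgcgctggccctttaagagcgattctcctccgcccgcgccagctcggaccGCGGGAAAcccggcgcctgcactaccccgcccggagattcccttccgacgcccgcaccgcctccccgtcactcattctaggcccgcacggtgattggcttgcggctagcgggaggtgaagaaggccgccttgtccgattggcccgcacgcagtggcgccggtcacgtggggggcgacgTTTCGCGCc
One of these E2F motifs was present in 12 of the 21 G1/S promoters found in the table (57.1%), in 2 of 20 G2/M promoters (10.0%) and in 2.38% of all 27305 promoters. Among the 10288 promoters of tested genes the share was 3.82%. The CHR motif of G2/M genes, searched as TTTGAA or TTCGAA on both strands, was present in 1 of 21 G1/S promoters (4.76%), in 11 of 20 G2/M promoters (55.0%) and in 14.6% of all promoters. Among the promoters of tested genes it was present in 9.59%. These matches describe the letters in the windows and are not measured binding.

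The knockdown itself was checked first. MOCOS in LNCaP without TG stood at 25.2, 24.4, 23.9 and 23.7 CPM in the siCTRL libraries and at 4.12, 3.58, 3.46 and 3.86 CPM in the siMOCOS libraries. In C4-2B without TG it stood at 32.8, 33.6, 30.0 and 29.5 CPM with siCTRL and at 2.3, 2.83, 3.94 and 4.64 CPM with siMOCOS. With TG, MOCOS was higher in both lines, at 90.9 to 101 CPM in LNCaP siCTRL and 85.5 to 91.5 CPM in C4-2B siCTRL, and siMOCOS lowered it to 9.76 to 19.1 and 10.5 to 18.7 CPM. Every siMOCOS library was below every siCTRL library of its line and TG state. MOCOS fell by 2.72 on the log2 scale in LNCaP and fell by 2.89 in C4-2B, and the difference of 0.17 ± 0.19 (SE) had an adjusted p of 0.599 and a 95% interval from -0.209 to 0.558.

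Of the enzymes that need the cofactor, XDH differed between the lines. XDH in C4-2B without TG was 2.01, 1.75, 2.02 and 1.51 CPM with siCTRL and 2.98, 3.98, 5.67 and 5.91 CPM with siMOCOS. In LNCaP without TG it was 5.01, 4.15, 5.19 and 4.26 CPM with siCTRL and 2.98, 3.35, 4.55 and 5.29 CPM with siMOCOS. With TG, C4-2B went from 15.2 to 19.8 CPM with siCTRL to 26.4 to 28.9 CPM with siMOCOS, while LNCaP held 30.1 to 33.3 and 29.2 to 33.8 CPM. Thus the siMOCOS libraries lay above all siCTRL libraries in C4-2B in both TG states and overlapped them in LNCaP. XDH rose 2.01-fold in C4-2B (adjusted p = 7.42e-08), and its effect in LNCaP was -0.12 (adjusted p = 0.468). The line difference was -1.12 ± 0.17 (SE; adjusted p = 0.000251). AOX1 was below 2 CPM in every library, and its difference of -0.65 ± 0.56 (SE) did not pass the test (adjusted p = 0.477). The list of molybdenum cofactor genes and enzymes had 7 tested members, of which XDH was the 1 called. Over all genes 8.03% were called.

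**Figure D1:**
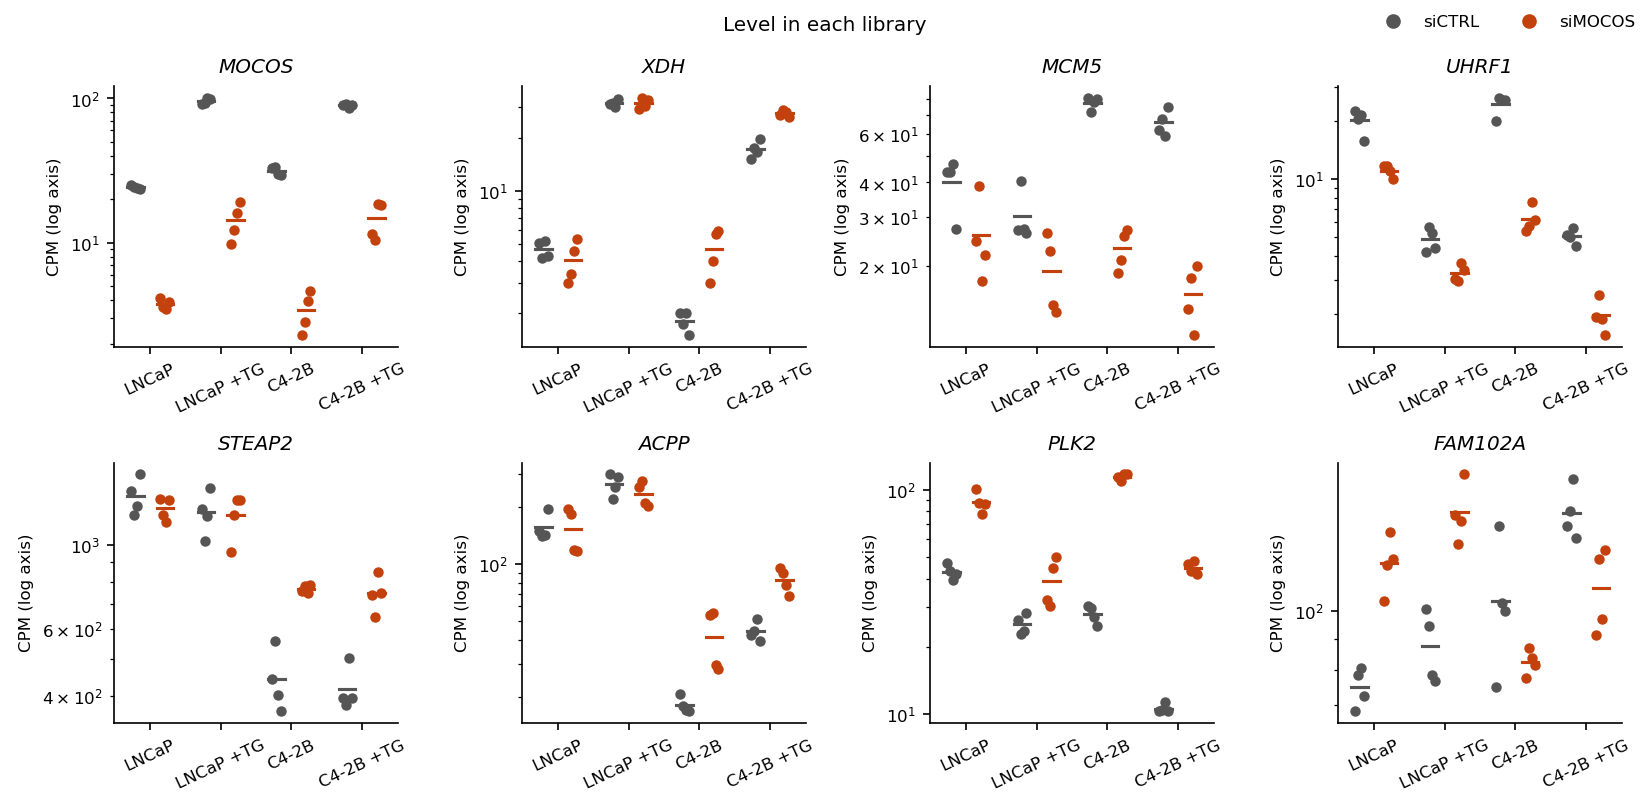
Level in CPM (log axis) of 8 genes in each of the 32 libraries, by line and TG state; each point is a library, grey for siCTRL and orange for siMOCOS, and each bar is the mean of 4 libraries. XDH and STEAP2 move with knockdown in C4-2B and overlap in LNCaP, while MOCOS falls in both lines.

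Across all genes, 1175 of 14628 had a line difference with an adjusted p under 0.05, 615 above 0 and 560 below 0 (8.03% in all, 4.2% above and 3.83% below). Knockdown changed 4344 genes in LNCaP (29.7%) and 5223 in C4-2B (35.7%). The lines moved together for most of the genes called in both: 2339 of 2411 went in the same direction, 1019 up and 1320 down, which is 53.8% of the LNCaP calls and 44.8% of the C4-2B calls. The 2 effects had a Pearson r of 0.551 over 14628 genes, given as a description since genes share the libraries. Of the 1175 genes, 587 had a knockdown effect called in C4-2B alone, 299 in LNCaP alone, 72 in opposite directions, 175 in the same direction with the greater effect in C4-2B, 4 in the same direction with the greater effect in LNCaP, and 38 in neither line. This split moved with the libraries and with GC content. Without any 1 library the genes called in LNCaP alone numbered 127 to 478, those in C4-2B alone 357 to 800, those in opposite directions 38 to 117, those in neither line 7 to 79, and those with the same direction and the greater effect in C4-2B 131 to 202. With the GC trend removed, as described below, the same 5 counts were 61, 326, 35, 4 and 196.
The counts depended on the libraries used. With the knockdown columns numbered 1 and 2 alone, 1092 genes were above 0 and 976 below. With columns 3 and 4 alone, 229 were above 0 and 319 below.

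**Figure D2:**
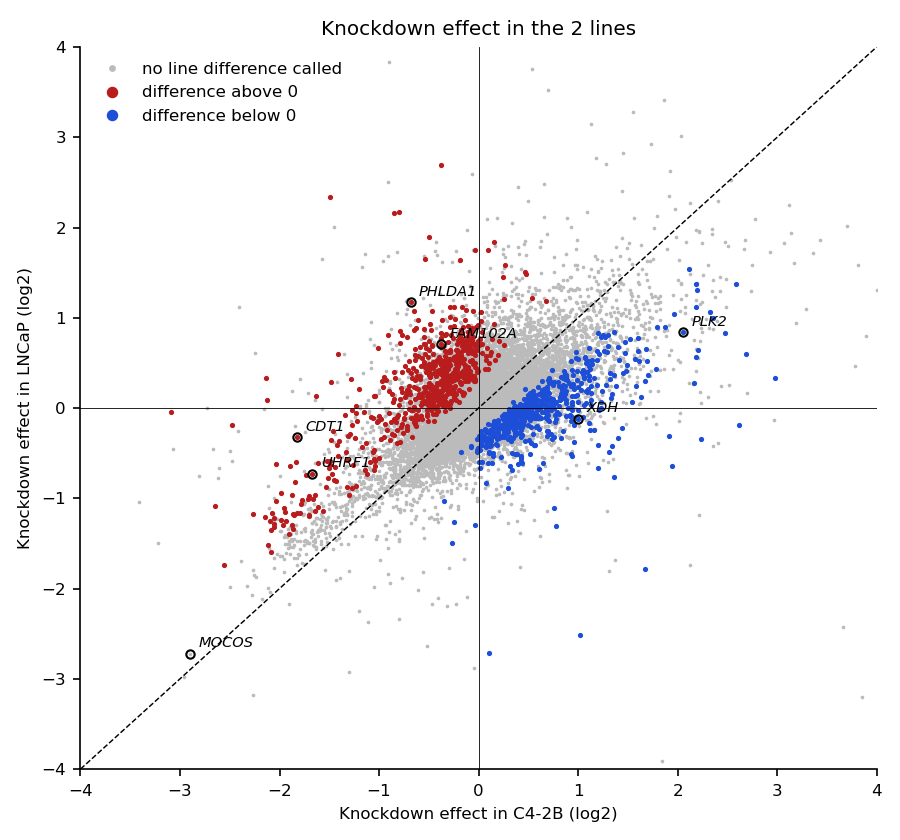
Knockdown effect (log2) of each tested gene in C4-2B (horizontal axis) and LNCaP (vertical axis); the dashed line marks equal effects, red and blue points are the 615 and 560 genes called above and below 0, and 23 genes lie outside the plotted range. MOCOS lies near the line of equal effects, and CDT1 and PLK2 lie off it on opposite sides.

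The line difference moved with the GC content of the transcripts. In the decile of genes with the lowest GC content the median difference was -0.185, and in the decile with the highest it was 0.512. The LNCaP effect went from -0.152 to 0.465 over the same deciles, and the C4-2B effect from 0.0433 to -0.0713. Genes called above 0 made up 0.307% of the lowest decile and 17.1% of the highest. Genes called below 0 went from 6.99% to 0.308%. GC content was known for 12991 of the tested genes (88.8%). With a smooth GC trend removed from each library, an alternative chosen after seeing the data, 274 genes were above 0 and 350 below. Of the 1100 original calls with a GC value, 426 (38.7%) were called again, none with the opposite sign. What produced the trend was not tested, and calls with the GC trend removed are given below beside the groups of genes.

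**Figure D3:**
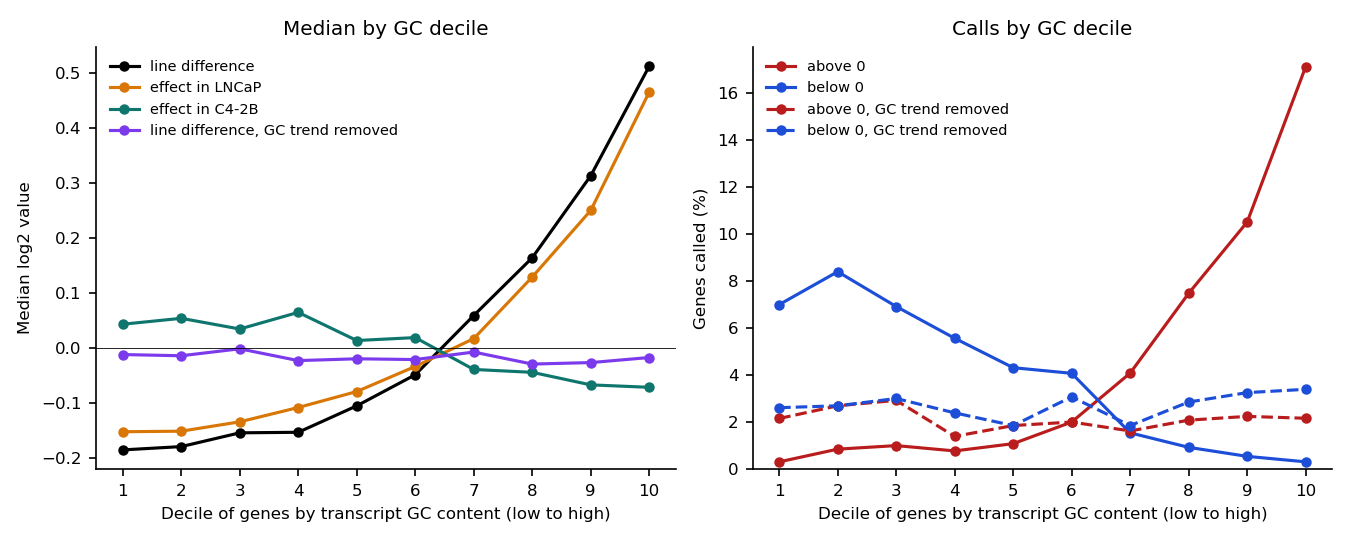
Left, median log2 value in deciles of genes ordered by transcript GC content, for the line difference, the effect in each line and the line difference with the GC trend removed; right, percent of genes called above or below 0, solid as tested and dashed with the trend removed. The solid red line climbs from 0.307% to 17.1%, and the dashed lines stay between 1.39% and 3.39%.

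Genes of G1/S and DNA replication fell with knockdown in both lines and fell further in C4-2B. All 24 listed genes were tested: 24 fell in C4-2B, where 17% of all genes fell, and 22 in LNCaP, where 15.2% did. Their median effect was -1.6 in C4-2B and -0.982 in LNCaP, against 0.00805 and 0.00537 over all genes. The line difference was called above 0 for 11 of 24 and below 0 for none, where 4.2% of all genes were above 0, and the median difference was 0.405 against -0.0275 over all genes. The 11 were the licensing factor CDT1, the helicase subunits MCM2, MCM3, MCM4, MCM5, MCM7 and MCM10, the helicase partner GINS2, the flap nuclease FEN1, the transcription factor E2F1 and the methylation maintenance factor UHRF1. With the GC trend removed, 10 of 24 were called, and E2F1 was not (adjusted p = 0.0975). With knockdown columns 1 and 2 alone 16 were called, and with columns 3 and 4 alone 5 were.

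MCM5, a subunit of the replicative helicase (chr22:35400063-35425430, plus strand, GRCh38), shows the pattern library by library and was chosen after its values were seen. In C4-2B without TG its level was 80.7, 71.5, 78.0 and 79.8 CPM with siCTRL and 18.9, 21.1, 25.6 and 27 CPM with siMOCOS. In LNCaP without TG it was 43.5, 43.8, 46.7 and 27.1 CPM with siCTRL and 24.7, 38.9, 17.7 and 21.9 CPM with siMOCOS. MCM5 thus began higher in C4-2B and ended at similar levels in both lines, with no overlap between siRNAs in C4-2B and overlap in LNCaP. MCM5 fell 3.73-fold in C4-2B and 1.56-fold in LNCaP, a difference of 1.25 ± 0.22 (SE; adjusted p = 0.00123).

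UHRF1 keeps DNA methylation through replication. It began at like levels in both lines, 20.1, 26.5, 25.9 and 25.9 CPM in C4-2B and 22.7, 20.7, 21.6 and 15.9 CPM in LNCaP without TG. With siMOCOS it was 5.43, 5.76, 7.66 and 6.15 CPM in C4-2B and 11.7, 11.7, 11 and 10.0 CPM in LNCaP. All siMOCOS libraries were below all siCTRL libraries in both lines and TG states. UHRF1 fell 3.18-fold in C4-2B and 1.65-fold in LNCaP, a difference of 0.94 ± 0.15 (SE; adjusted p = 0.000473).

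CDT1, which loads the helicase, differed by 1.5 ± 0.23 (SE; adjusted p = 0.000297), and its LNCaP effect of -0.32 was not called (adjusted p = 0.14). MCM7 differed by 0.66 ± 0.11 (SE; adjusted p = 0.000836) and MCM3 by 0.34 ± 0.09 (SE; adjusted p = 0.0189), the smallest of the 11. In the pyrimidine synthesis list, thymidylate synthase TYMS (0.51) and thymidine kinase TK1 (0.91) were the 2 of 13 called, both above 0, where 4.2% of all genes were, and TK1 was not called with the GC trend removed (adjusted p = 0.0566).

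Genes of G2/M and mitosis fell in both lines too, all 24 in each, with a median of -1.71 in C4-2B and -1.47 in LNCaP. The median difference was 0.305 and all 24 differences were above 0, but 2 of 24 were called: the kinase AURKB (0.94 ± 0.22 SE, adjusted p = 0.0117) and cyclin CCNB1 (0.36 ± 0.11 SE, adjusted p = 0.0353). Over all genes 4.2% were called above 0. CCNB1 lost its call when any of 12 single libraries was left out (adjusted p up to 0.0676), the list had 1 to 3 calls without 1 library, and 5 of 24 were called with the GC trend removed. With columns 1 and 2 alone 14 of 24 were called, and with columns 3 and 4 alone 0 were.

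**Figure D4:**
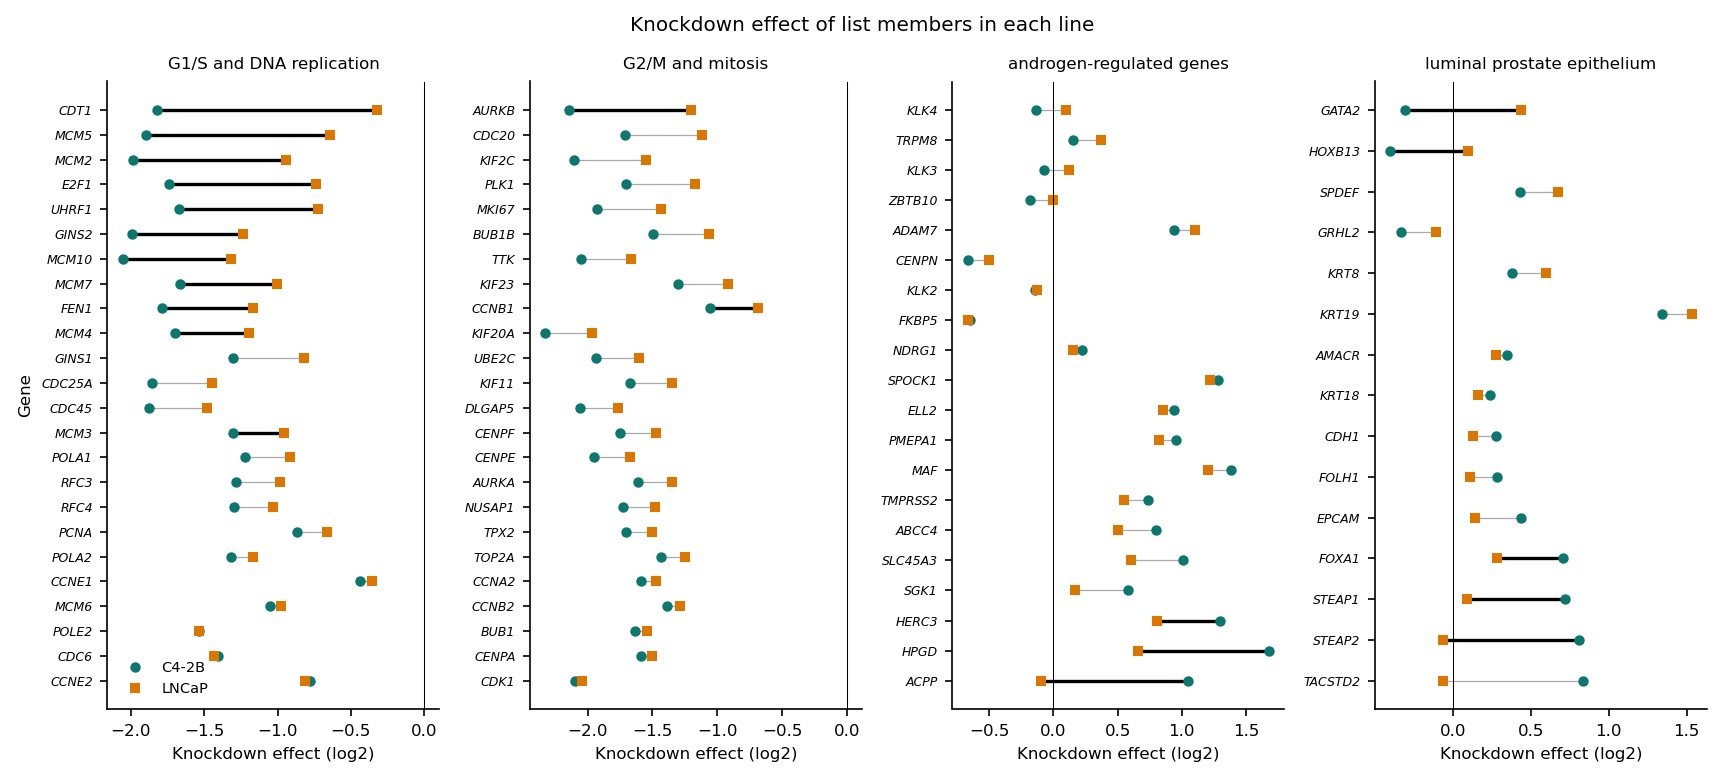
Knockdown effect (log2) of members of 4 gene lists in C4-2B (green circles) and LNCaP (orange squares), ordered by the line difference; black bars join the 2 values where the difference was called and grey bars where it was not. All G1/S and G2/M values are below 0, and ACPP and STEAP2 are near 0 in LNCaP and above 0 in C4-2B.

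More androgen-regulated genes rose than fell in both lines, and a few of them rose further in C4-2B. Of 21 tested, 12 rose and 2 fell in C4-2B (median effect 0.795), while 9 rose and 2 fell in LNCaP (median effect 0.373). The rest were not called. Over all 14628 genes, 2740 rose and 2483 fell in C4-2B, and 2115 rose and 2229 fell in LNCaP. TMPRSS2, PMEPA1, MAF and SPOCK1 rose in both lines with no line difference called. FKBP5 and CENPN fell in both lines, also with no line difference called. For KLK2, KLK3 and KLK4 no knockdown effect was called in either line. In the line difference, 4 were below 0 and 0 above, where 3.83% of all genes were below, and the median difference was -0.0858. Among the 4 were the prostatic acid phosphatase ACPP, the prostaglandin-degrading enzyme HPGD and the ubiquitin ligase HERC3, and 3 of 21 were called with the GC trend removed (HERC3 had an adjusted p of 0.0518). Of 16 luminal genes, 10 rose and 2 fell in C4-2B, and 5 rose and 0 fell in LNCaP, to be set against the all-gene counts above. In the line difference the metalloreductases STEAP1 and STEAP2 and the pioneer factor FOXA1 were below 0, and HOXB13 and GATA2 were above 0 (neither called with the GC trend removed, adjusted p = 0.0681 and 0.798). Over all genes 3.83% were below 0 and 4.2% above. KLK3, which encodes PSA, had a difference of 0.19 (adjusted p = 0.562) that was -0.04 with the GC trend removed.

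STEAP2 (chr7:90167590-90238137, plus strand) in C4-2B without TG was 445, 560, 402 and 365 CPM with siCTRL and 754, 780, 745 and 784 CPM with siMOCOS. In LNCaP without TG it was 1380, 1200, 1260 and 1530 CPM with siCTRL and 1320, 1200, 1150 and 1310 CPM with siMOCOS. The LNCaP libraries overlapped and lay above every C4-2B library, while the C4-2B groups did not overlap. STEAP2 rose 1.75-fold in C4-2B, its LNCaP effect was -0.07 (adjusted p = 0.597), and the difference was -0.88 ± 0.12 (SE; adjusted p = 0.000171).

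ACPP (chr3:132317367-132368298, plus strand) in C4-2B without TG was 20.7, 17.9, 17.1 and 16.8 CPM with siCTRL and 53.7, 55.3, 29.3 and 28.2 CPM with siMOCOS. In LNCaP without TG it was 149, 141, 143 and 195 CPM with siCTRL and 196, 183, 119 and 118 CPM with siMOCOS. In both lines the first pair of knockdown columns was higher than the second pair, and the siRNA groups overlapped in LNCaP and not in C4-2B. ACPP rose 2.07-fold in C4-2B, its LNCaP effect was -0.10 (adjusted p = 0.599), and the difference was -1.15 ± 0.19 (SE; adjusted p = 0.000858).

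HPGD differed by -1.03 ± 0.26 (SE; adjusted p = 0.0155) and STEAP1 by -0.63 ± 0.11 (SE; adjusted p = 0.00123). FOXA1 differed by -0.42 ± 0.11 (SE; adjusted p = 0.0202). It lost the call with either pair of knockdown columns alone (adjusted p = 0.0592 and 0.0979). In androgen metabolism, the retinol dehydrogenase RDH11 was below 0 (-0.51) and the androgen-conjugating enzyme UGT2B15 above 0 (0.90), the latter losing its call without any of 12 single libraries (adjusted p up to 0.0705). Both were called again with the GC trend removed. The RDH11 difference was -0.83 without TG (adjusted p = 0.00196) and -0.20 with TG (adjusted p = 0.467). The integrin ITGA6, listed as a basal marker, was below 0 (-0.71 ± 0.13 SE, adjusted p = 0.00132), and was called again with the GC trend removed.

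PLK2, a stress-responsive polo-like kinase (chr5:58453982-58460260, minus strand), rose in both lines and rose further in C4-2B. In C4-2B without TG it was 30.4, 29.6, 27 and 24.8 CPM with siCTRL and 114, 109, 117 and 117 CPM with siMOCOS. In LNCaP without TG it was 47.0, 43.5, 39.6 and 42 CPM with siCTRL and 101, 87.0, 77.8 and 86.6 CPM with siMOCOS. No siMOCOS library overlapped its siCTRL group in either line or TG state. PLK2 rose 4.16-fold in C4-2B and 1.79-fold in LNCaP, and the difference was -1.22 ± 0.12 (SE; adjusted p = 8.33e-07; 1.21e-07 with the GC trend removed).

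Other genes with the greatest negative differences were the mitochondrial carrier SLC25A27 (-1.33), the GABA receptor subunit GABBR1 (-1.23), the peroxisomal carnitine transferase CROT (-1.21) and GREB1L (-1.11), all called again with the GC trend removed. GREB1L lost its call with knockdown columns 3 and 4 alone (adjusted p = 0.0729). In the list of lipid oxidation and peroxisome genes CROT and the trifunctional protein subunit HADHB (-0.46) were the 2 of 17 called, and HADHB was not called with the GC trend removed (adjusted p = 0.104). Over all genes 3.83% were called below 0.
Among the greatest positive differences, the chaperone clusterin CLU differed by 1.77 ± 0.34 (SE; adjusted p = 0.00266), with a C4-2B effect of -1.49 and a LNCaP effect of 0.28 (adjusted p = 0.397). CLU, PHLDA2 (1.64), the hydroxylase DOHH (1.42), the small heat shock protein HSPB1 (1.34) and the estrogen receptor GPER1 (1.32) were called again with the GC trend removed. The claudin CLDN3 (1.83) and CTXN1 (1.66) were not (adjusted p = 0.086 and 0.0736), and CLDN3 lost its call without any of 14 single libraries (adjusted p up to 0.07). With knockdown columns 3 and 4 alone PHLDA2, DOHH, HSPB1, GPER1, CLDN3 and CTXN1 lost their calls (adjusted p from 0.0573 for CLDN3 to 0.124 for GPER1), and CLU kept its call.

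Genes called in opposite directions in the 2 lines numbered 72 (35 with the GC trend removed), of which 44 rose in LNCaP and fell in C4-2B, and 28 did the reverse. FAM102A (chr9:127940579-127980513, minus strand) had the smallest adjusted p. In LNCaP without TG it was 68.4, 78.5, 80.6 and 72.5 CPM with siCTRL and 104, 119, 135 and 122 CPM with siMOCOS. In C4-2B without TG it was 75.1, 138, 103 and 100 CPM with siCTRL and 77.6, 86.9, 83.8 and 81.4 CPM with siMOCOS. The LNCaP groups did not overlap, and the C4-2B groups overlapped without TG and did not with TG. FAM102A rose 1.63-fold in LNCaP and fell 1.3-fold in C4-2B, a difference of 1.08 ± 0.14 (SE; adjusted p = 8.12e-05). The histone gene HIST1H2BJ (1.68), ABTB2 (0.82) and the mitochondrial import receptor TOMM40 (1.04) went the same way as FAM102A. The tetraspanin TSPAN13 (-0.63) and the noncoding RNA LINC01133 (-0.96) went the other way. HIST1H2BJ has near-identical histone copies, so its counts are uncertain. With the GC trend removed the line difference was called again for all 6, but the LNCaP effect was not called for TOMM40 (0.0069, adjusted p = 0.955), ABTB2 (0.16, adjusted p = 0.217) or TSPAN13 (-0.049, adjusted p = 0.694). The opposite directions, as averages over the TG states, were thus called again for FAM102A, HIST1H2BJ and LINC01133. Within a TG state, without the GC correction, FAM102A and LINC01133 were called in opposite directions with TG and not without TG. ABTB2, TSPAN13, TOMM40 and HIST1H2BJ were not called in opposite directions within either TG state. The LNCaP rise of HIST1H2BJ was called without TG (1.31, adjusted p = 0.00395) and not with TG (0.033, adjusted p = 0.939). Its C4-2B fall was called with TG (-1.62, adjusted p = 1.53e-06) and not without TG (-0.39, adjusted p = 0.24). Its level in LNCaP siCTRL without TG was 0.37 to 1.18 CPM.

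Among genes of the endoplasmic reticulum stress response, 5 of 32 XBP1s targets were below 0 and 0 above, where 3.83% and 4.2% of all genes were, with a median difference of -0.218. With columns 1 and 2 alone 10 were below 0, and with columns 3 and 4 alone 2 were. The co-chaperone DNAJB9 was -0.52 ± 0.10 (SE; adjusted p = 0.00266) and the translocon subunit SSR1 -0.39 ± 0.10 (SE; adjusted p = 0.0217). With the GC trend removed 1 of 32 was called, DNAJB9. Of 15 ATF6 targets 1 was below 0, the disulfide isomerase PDIA3 (-0.54), which was not called with the GC trend removed (adjusted p = 0.0968), where 1 other member, P4HB, was called. Without 1 library, 1 to 3 ATF6 targets were below 0. Of 31 PERK, ATF4 and CHOP targets 3 were above 0 and 1 below, where 4.2% and 3.83% of all genes were. Without 1 library 1 to 5 of these targets were above 0. The glutathione-degrading CHAC1 (1.26) was called again with the GC trend removed, and the mTORC1 inhibitor DDIT4 (0.61) and the folate enzyme ALDH1L2 (-1.22) were not (adjusted p = 0.17 and 0.0951). The CHAC1 difference was 1.89 without TG (adjusted p = 0.0821) and 0.62 with TG (adjusted p = 0.404). With TG its siMOCOS and siCTRL libraries overlapped in both lines. In C4-2B without TG CHAC1 was 3.63 to 7.11 CPM with siCTRL and 0.835 to 2.2 CPM with siMOCOS. ALDH1L2 was low in LNCaP, at 0.198 to 4.2 CPM, against 27.2 to 255 CPM in C4-2B.

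Of 25 interferon response genes 2 were above 0 (4.2% of all genes were), OASL and IFIT3, 1 to 3 were without 1 library, and both were called with the GC trend removed. In C4-2B siMOCOS libraries both were low, OASL at 0.63 to 1.64 CPM and IFIT3 at 0.42 to 1.25 CPM. OASL, an antiviral protein, fell 3.56-fold in C4-2B and 1.52-fold in LNCaP, a difference of 1.23 ± 0.19 (SE; adjusted p = 0.000436). IFIT3 differed by 0.87 ± 0.25 (SE; adjusted p = 0.0305). Of 20 genes of fatty acid synthesis, FASN (1.25) and its regulator SREBF1 (0.85) were above 0 and the malic enzyme ME1 (-0.46) was below. Over all genes 4.2% were above 0 and 3.83% below. FASN and ME1 were not called with the GC trend removed (adjusted p = 0.0513 and 0.0705). Of 23 cholesterol genes 4 were above 0 (DHCR7, EBP, MVD and PMVK) and 1 below (SC5D), where 4.2% and 3.83% of all genes were. In the cholesterol list 0 to 5 were above and 0 to 2 below without 1 library, and 0 were called with the GC trend removed. Of 19 early response genes 4 were above 0, where 4.2% of all genes were, and 1 of the 4 was called with the GC trend removed. PHLDA1 differed most of the 4, by 1.86 ± 0.30 (SE; adjusted p = 0.000473), and was the 1 called again. PHLDA1 was low in LNCaP siCTRL libraries, at 0.648 to 1.84 CPM. Of 31 nuclear oxidative phosphorylation genes and 25 hypoxia and glycolysis genes, 0 were called, where 8.03% of all genes were. In the hypoxia and glycolysis list up to 4 were called without 1 library, C4-2B siMOCOS column 3, and with columns 1 and 2 alone 4 were above 0 and 1 below.

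Among genes near silent in 1 line, below 1 CPM in all its groups, LPAL2 (-2.13), the mucin MUC5AC (2.98) and the transcription factor LYL1 (2.47) had the smallest adjusted p. MUC5AC was at most 0.49 CPM in any LNCaP library, and LYL1 was not called with the GC trend removed (adjusted p = 0.109), while LPAL2 and MUC5AC were.

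The line difference could also be taken in each TG state. Without TG 23 genes were called (0.157%) and with TG 63 (0.431%), each from 16 of the 32 libraries. A change of the line difference with TG was called for no gene (edgeR, 0 of 14628 called; 234 at an unadjusted p under 0.05; DESeq2 called 3 and limma voom 0). XDH had -1.57 without TG (adjusted p = 0.00322) and -0.67 with TG (adjusted p = 0.138), and PLK2 -1 (adjusted p = 0.00547) and -1.44 (adjusted p = 5.12e-05).

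The median gap between the lines was smaller in siMOCOS than in siCTRL libraries. Over all 14628 genes, the median absolute log2 gap between the line means (with 0.5 added to each CPM) was 0.359 in siCTRL and 0.271 in siMOCOS without TG, and 0.346 and 0.28 with TG. The gap was smaller in siMOCOS for 61.3% of genes without TG and 57.6% with TG. The gap in GC trend between the lines was smaller too: the mean slope, in log2 per 10 percentage points of GC content, with siCTRL was 0.19 for the C4-2B libraries and -0.0992 for the LNCaP libraries, and with siMOCOS it was 0.161 and 0.0672. With TG these slopes were -0.012 and -0.238 with siCTRL, and -0.0528 and -0.0168 with siMOCOS. With the GC trend removed, over 12991 genes, the median gap was 0.321 in siCTRL and 0.27 in siMOCOS without TG, and 0.316 and 0.279 with TG, and it was smaller in siMOCOS for 57.4% and 55% of genes. No test was made of these gaps. Among the 1175 called genes it was 0.653 and 0.274 without TG, but those genes were chosen on the same libraries, so this is a description.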

How the data were processed

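Gene-level estimated counts, scaled for transcript length, were deposited for 32 libraries. Salmon 1.5.2 and STAR 2.6.1d on build hg38, cutadapt 3.4, Trim Galore 0.6.7 and FastQC 0.11.9 are named in the submitters' processing notes, without roles or settings. These expected counts were rounded and fitted with edgeR 4.0.16 (R 4.3.3): filterByExpr, TMM, 8 groups, quasi-likelihood F-tests and Benjamini-Hochberg adjustment over 14628 genes, called at an adjusted p under 0.05. Values printed per library are CPM. DESeq2 1.42.0 and limma 3.58.1 were alternatives. GC content came from GENCODE v29 transcripts. The fit was tested on simulated data. It called 86% and 82% of true differences of 1 and -1, and 6% and 24% of those of 0.5 and -0.5. Of 14428 unchanged genes it called 5 (0.0347%), and 486 (3.37%) where the simulated LNCaP knockdown libraries held a GC trend. With that trend removed, 12 of 12813 unchanged genes were called (0.0937%). Members and lists were chosen with earlier results of these data known.

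Genes named were MOCOS, XDH and AOX1; the 12 greatest differences in each direction among called genes with at least 5 CPM in a group of each line; the 6 opposite-direction genes and 3 near-silent genes of smallest adjusted p; and up to 3 called genes per list. Other named genes were chosen after their values were seen. Left out of the text as sharing reads with copies or lacking annotation were BOLA2, RBM14-RBM4, GUSBP9, FLJ44342, TMEM183B, RP11-279F6.1 and LOC100131564; lists not described had at most 2 called members. Some genes that the rule or the lists hold are not reported here.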

Additional observations from a re-analysis of the deposited data

Results flagged for a closer look

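Each gene below had a knockdown effect that differed between the lines in the test of the difference itself (edgeR, adjusted p under 0.05), given as LNCaP minus C4-2B on the log2 scale. The replication and mitosis genes were all above 0, with CDT1 at 1.5, UHRF1 at 0.94, MCM7 at 0.66, MCM5 at 1.25, MCM3 at 0.34, E2F1 at 1.00, AURKB at 0.94, CCNB1 at 0.36, TYMS at 0.51 and TK1 at 0.91. Among prostate and androgen genes the differences below 0 were STEAP1 at -0.63, STEAP2 at -0.88, ACPP at -1.15, HPGD at -1.03, HERC3 at -0.49, FOXA1 at -0.42, RDH11 at -0.51 and ITGA6 at -0.71. Those above 0 were HOXB13 at 0.50, GATA2 at 0.75 and UGT2B15 at 0.90. Metabolic and signalling genes below 0 were XDH at -1.12, PLK2 at -1.22, SLC25A27 at -1.33, GABBR1 at -1.23, CROT at -1.21, HADHB at -0.46 and GREB1L at -1.11. Genes moving in opposite directions, as averages over the TG states, included FAM102A at 1.08, HIST1H2BJ at 1.68, ABTB2 at 0.82, TSPAN13 at -0.63, LINC01133 at -0.96 and TOMM40 at 1.04. DNAJB9, PHLDA1, PHLDA2, LPAL2 and MUC5AC, given below in other groups, did so too. With the GC trend removed the LNCaP effect was no longer called for TOMM40, ABTB2, TSPAN13, DNAJB9 and PHLDA2. The lipid gene ME1 was at -0.46. Stress and interferon genes were DNAJB9 at -0.52, SSR1 at -0.39, PDIA3 at -0.54, CHAC1 at 1.26, DDIT4 at 0.61, ALDH1L2 at -1.22, OASL at 1.23 and IFIT3 at 0.87. Genes with great positive differences were CLU at 1.77, CLDN3 at 1.83, CTXN1 at 1.66, PHLDA2 at 1.64, DOHH at 1.42, HSPB1 at 1.34, GPER1 at 1.32, FASN at 1.25, SREBF1 at 0.85 and PHLDA1 at 1.86. Genes near silent in 1 line were LPAL2 at -2.13, MUC5AC at 2.98 and LYL1 at 2.47. 

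In the 8 genes shown library by library, 6 of 64 groups of 4 had 1 library whose gap to the nearest other, as a share of the group's range, was above Dixon's 95% critical value; chance flags about 1 group in 20. The share was 0.833 for the lowest MCM5 library in LNCaP siCTRL and 0.921 for the highest in LNCaP siCTRL with TG. It was 0.901 for the lowest UHRF1 library in C4-2B siCTRL. In C4-2B siCTRL with TG, replicate 3 was the highest for STEAP2 (0.867) and PLK2 (0.879). It was 0.839 for the highest ACPP library in LNCaP siCTRL, replicate 4. The calls for these genes held without any 1 library.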

How the results depend on the processing

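Of the 615 and 560 genes above and below 0, RLE normalization, limma voom, DESeq2 and a minimum of 5 CPM kept each count within 1.5 times; with no low-count filter 281 were below 0. A replicate block on the column number gave 737 and 587; same-numbered siCTRL and siMOCOS libraries had correlations from -0.0275 to 0.419, 7 of 8 over 0.1 in C4-2B and 3 of 8 in LNCaP. Not every pair passed 0.1 and the labels give the numbers no shared source, so the block is an alternative here. Knockdown columns 1 and 2 alone gave 1092 and 976, columns 3 and 4 alone 229 and 319, the GC trend removed 274 and 350, and the GC and length trends removed 329 and 372. Leaving out 1 library gave 341 to 905 above 0 and 364 to 768 below. Both lowest counts came without LNCaP siMOCOS TG column 1. The count above 0 also fell by over 1.5 times without C4-2B siCTRL 3 (356) or 4 (381), siMOCOS 1 (369) or 2 (396), siCTRL TG 2 (384), siMOCOS TG 1 (396) or 3 (380), and without LNCaP siCTRL 4 (384), siMOCOS 2 (407) or 3 (382), or siCTRL TG 3 (400) or 4 (396). No cause was tested.

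Without TG the 23 calls became 12 with no filter, 35 with the 5 CPM minimum, 99 with DESeq2, 204 and 41 with the column pairs, 50 with GC removed and 55 with GC and length removed, and 11 to 35 without 1 library. With TG the 63 became 96 with RLE, 15 with no filter, 117 with the 5 CPM minimum, 108 with limma voom, 306 with DESeq2 and 230 with columns 1 and 2, and 9 to 172 without 1 library. The change with TG had 3 calls with DESeq2 and 0 to 1 without 1 library. Knockdown calls without 1 library ran from 3534 to 4522 in LNCaP and from 4701 to 5405 in C4-2B.

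The sign turned for MOCOS (-0.020) and AOX1 (0.20) with columns 3 and 4 alone, and for KLK3 with GC removed (-0.044) and GC and length removed (-0.053), none called in any of these. DDIT4 lost its call without C4-2B siCTRL 4 (adjusted p = 0.0519), C4-2B siMOCOS 1 (adjusted p = 0.0507) or LNCaP siMOCOS 3 (adjusted p = 0.0531), and IFIT3 without C4-2B siMOCOS TG 1 (adjusted p = 0.0534), LNCaP siCTRL 1 (adjusted p = 0.0513) or LNCaP siMOCOS 3 (adjusted p = 0.0576). ALDH1L2 lost it without any of 9 single libraries (adjusted p up to 0.0717) and GATA2 without any of 15 (adjusted p up to 0.0674). Of the named genes, 23 lost their call with columns 3 and 4 alone and 15 with the GC trend removed.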
